A study of Mus musculus with 26 samples.

Results

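The comparison described here set the colon of mice fed the LXR agonist GW3965 against the colon of mice fed a standard diet on day 43 of the AOM–DSS protocol, and comprised 6 of the 26 RNA-seq samples of the study, chosen by their titles (3 samples per diet). All 6 samples came from wild-type male C57BL/6J mice of about 10 weeks at the start. Every animal, on either diet, had received azoxymethane (AOM, a carcinogen, 10 mg per kg body weight) and then cycles of 7 days of dextran sodium sulfate (DSS) in the drinking water, which injures the colonic epithelium, so that the groups differed in diet and shared the injury and the carcinogen. Colon tissue was sampled 43 days after AOM, and polyadenylated RNA was sequenced. According to the labels the 3 standard diet samples came from 1 cage and the 3 GW3965 samples from 1 other cage, so that diet and cage cannot be told apart at this day. The labels do not state that each sample was a separate animal. The paper describes the bulk RNA-seq both as one experiment on a few mice per time point and, in its reporting summary, as pools of biological replicates sequenced as single samples, so that the animals behind each sample are uncertain. The P values measure the spread between samples within groups, not between known animals. Except where the day 43 samples were fitted alone, this spread was estimated over the groups of the whole study and not from the 6 samples only.

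The liver X receptors LXRα (*Nr1h3*) and LXRβ (*Nr1h2*) are nuclear receptors that bind oxysterols, oxidised derivatives of cholesterol, and act on DNA together with retinoid X receptors. In their active state they switch on genes that move cholesterol out of the cell, genes that take it back into the intestinal lumen, and *Srebf1*, the transcription factor that drives fatty acid synthesis. In the intestine the pathway is known for limiting the uptake of dietary sterols.

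The 6 libraries held between 19774946 and 41522204 counts. Standard diet replicate 1 stood apart from the other 5. It had the most counts, an RNA integrity number (RIN, where low values mean degraded RNA) of 2.6 against 6.8 to 9.3, and 1.94% of its counts on mitochondrial genes against 3.38% to 7.08%. Its mean Pearson correlation with the other standard diet samples was 0.902 across 17063 genes, against 0.921 to 0.961 for the other 5 samples with their own diets, and genes are not independent replicates. The genes called and the median of each gene list are therefore given with and without this sample. All 12 colon and epithelial markers on the list, such as *Epcam* and the hindgut gene *Hoxb13*, passed the filter, and their summed level lay between 3488 and 6917 CPM (counts relative to a library size scaled by TMM) in the 6 samples. Replicate values are listed below in the order of replicates 1, 2 and 3.

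At a false discovery rate (FDR) below 0.05 with edgeR's quasi-likelihood test, 5 of the 17063 genes tested rose on the GW3965 diet (0.0293%) and 0 fell (0%). At an unadjusted P under 0.05 there were 615 genes higher (3.6%) and 861 lower (5.05%), and the 3 GW3965 samples lay above the 3 standard samples for 1148 genes (6.73%) and below them for 716 (4.2%). The genes that rose were *Abcg1*, *Srebf1*, *Abcg5*, *Abcg8* and *Abca1*, which all belong to the list of 20 LXR target genes. Without standard replicate 1 these 5 genes again rose (0.0287% of 17418 tested), and 1 gene, *Mid1*, fell (0.00574%). The number of genes called depended on other single samples too, with 285 genes without standard replicate 2, 15 without standard replicate 3 and 2 without GW3965 replicate 2, and all 5 genes were among those called without either of these standard samples. With DESeq2 in place of edgeR, 68 genes were called, the same 5 included.

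*Abca1* (ENSMUSG00000015243.4, chromosome 4, 53030787 to 53159895 in GRCm38) encodes the transporter that passes cholesterol to lipid-poor apolipoprotein A-I. It was measured at 38.3, 36.1 and 26.4 CPM on the standard diet and at 132, 118 and 111 CPM on the GW3965 diet, which in log2 terms is a difference of 1.79 ± 0.286 (SE, adjusted P = 0.0136, edgeR). Every GW3965 sample was far above every standard sample, and standard replicate 1 was close to standard replicate 2. *Abcg1* (ENSMUSG00000024030.7, chromosome 17, 31057675 to 31117988), which exports cholesterol to high-density lipoprotein, had 7.96, 17.8 and 11.9 CPM on the standard diet and 110, 71.4 and 75.7 CPM on the GW3965 diet. The difference was 2.65 ± 0.298 in log2 terms (SE, adjusted P = 0.000333, edgeR), and the lowest GW3965 sample was well clear of the highest standard sample. *Srebf1* (ENSMUSG00000020538.15, chromosome 11, 60199089 to 60222581) was the most abundant of the 5 in CPM, with 96.0, 68.8 and 90.4 CPM on the standard diet and 356, 259 and 332 CPM on the GW3965 diet (log2 fold change 1.81, standard error 0.213, adjusted P = 0.000357, edgeR).

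The transporter subunits *Abcg5* and *Abcg8*, whose products pair to pump sterols out of the enterocyte, had the largest fold changes among the 5. *Abcg5* (ENSMUSG00000040505.13, chromosome 17, 84658234 to 84683011) had 7.37, 5.62 and 7.45 CPM on the standard diet and 71.2, 52.1 and 68.6 CPM on the GW3965 diet (log2 fold change 3.20, standard error 0.473, adjusted P = 0.00747, edgeR). *Abcg8* (ENSMUSG00000024254.15, chromosome 17, 84676302 to 84700333) had 3.67, 1.499 and 3.27 CPM and 26.6, 19.8 and 21.9 CPM (log2 fold change 3.05, standard error 0.475, adjusted P = 0.0117, edgeR). In both genes the diets were separated by a wide gap with no sample between. The annotated spans of these neighbours overlap on opposite strands, the use of strand in the quantification is not given in the sources used here, and reads from the overlap could not be told apart. Without standard replicate 1 the log2 fold changes of the 5 genes were 1.90 for *Abca1*, 2.42 for *Abcg1*, 1.91 for *Srebf1*, 3.26 for *Abcg5* and 3.31 for *Abcg8*, with adjusted P between 0.00151 and 0.0413 (edgeR). *Abca1* had an adjusted P of 0.0639 without GW3965 replicate 1 and of 0.673 without GW3965 replicate 2 (edgeR), with log2 fold changes of 1.73 and 1.72, and *Abcg5* and *Abcg8* had 0.0908 and 0.143 without the latter (edgeR), with log2 fold changes of 3.54 and 3.41.

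Among the 20 LXR targets, which were listed with earlier results of these data known, 19 had a higher fitted level on GW3965, 11 of them at an unadjusted P under 0.05 (all genes, 3.6%), and 10 had all GW3965 samples above all standard samples (all genes, 6.73%). Their median log2 fold change was 0.88, against -0.03 over all genes tested, and it was 0.94 without standard replicate 1. The targets that did not pass the threshold included genes with a clear gap between the diets. *Mylip*, which encodes a ubiquitin ligase that marks the LDL receptor for degradation, had 37.3, 29.9 and 27.6 CPM against 80.9, 66.7 and 81.5 CPM (log2 fold change 1.11, adjusted P = 0.439, edgeR). *Lpcat3*, an enzyme that puts polyunsaturated chains into phospholipids, had 19.1, 36.5 and 27.2 CPM against 88.5, 53.2 and 80.1 CPM (log2 fold change 1.19, adjusted P = 0.272, edgeR). It passed the threshold with DESeq2 (adjusted P = 0.00934) and in edgeR without standard replicate 2 (adjusted P = 0.0391). *Apoc1*, an apolipoprotein gene, had 2.02, 3.80 and 2.52 CPM against 9.63, 16.2 and 12.9 CPM, a log2 fold change of 2.24 with an adjusted P of 0.543 (edgeR). *Apoe*, which encodes the apolipoprotein E of macrophages and other cells, had 404 CPM in standard replicate 1 and between 1642 and 2337 CPM in the other 5 samples, and its log2 fold change went from 0.34 to -0.07 without that sample.

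**Figure D1:**
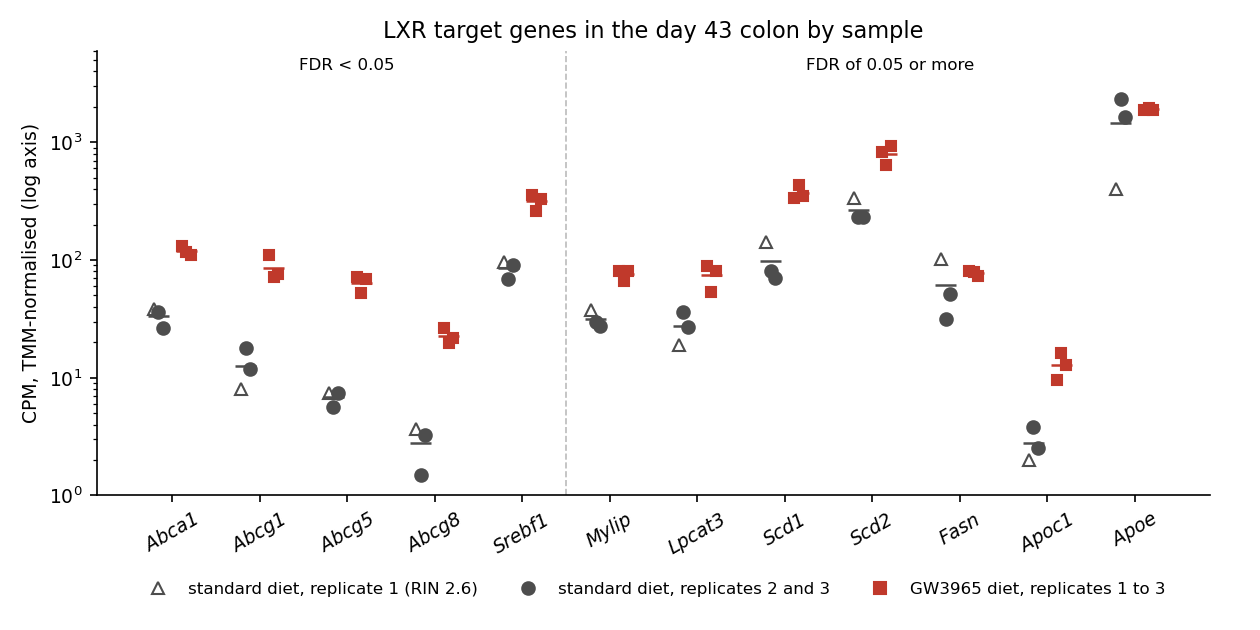
CPM of 12 LXR target genes in each day 43 sample on a log axis (triangle, standard replicate 1 with RIN 2.6; circles, standard replicates 2 and 3; squares, the 3 GW3965 samples; bar, mean of the 3 samples). The 5 genes left of the dashed line passed FDR < 0.05; for *Abcg5* the GW3965 samples lay at 52.1 to 71.2 CPM and the standard samples at 5.62 to 7.45 CPM.

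The promoters of the 5 genes were read for the sequence that LXR is known to bind, a pair of AGGTCA hexamers with 4 bases between them (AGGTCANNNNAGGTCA, both strands), in RefSeq windows from 250 bases before to 50 bases after each start (GRCm38.p6). Of the 5 genes, 4 had a window in the table. The closest matches stood in *Abca1* and in 1 of the 3 *Srebf1* windows, each with 3 of the 12 fixed bases differing, a closeness reached by 18.7% of the 15916 windows of tested genes. Both matches were made of the same letters, TGACCG and TAACCC with 4 bases between (TGACCGNNNNTAACCC, or GGGTTANNNNCGGTCA on the other strand). These letters were taken as a search string after they had been seen, so that the *Abca1* and *Srebf1* windows were bound to hold them. In all, 3 of the 15916 windows held them on either strand (0.019%), and the only other window was that of *Fasn*, which encodes fatty acid synthase. The windows are printed 5′ to 3′ on the strand of the gene, with the hexamers in capitals.
*Abca1* (chr4:53159940-53159969, minus strand, 67 bases before the start, over no annotated transcript): cagcgttTGACCGgtagTAACCCcggcgct
*Srebf1* (chr11:60210631-60210660, minus strand, 182 bases before an internal start, inside introns of 2 longer transcripts): acgacagTGACCGccagTAACCCcagcgcg
*Fasn* (chr11:120824750-120824779, minus strand, 225 bases before the start, over no annotated transcript): gccacgaTGACCGgtagTAACCCcgcctga
A match describes the letters of the window and does not show binding. Of these 3 genes, *Fasn* was the one without a clear difference between the diets, with 102, 31.6 and 51.5 CPM on the standard diet and 80.2, 79.6 and 73.9 CPM on the GW3965 diet. Standard replicate 1 held the highest *Fasn* level, and the log2 fold change was 0.26 with it and 0.85 without it (adjusted P = 0.886 and 0.572, edgeR), while without standard replicate 2 it was -0.22.

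The list of 22 fatty acid synthesis genes shares *Scd1*, *Scd2* and *Fasn* with the list of LXR targets. Of the 22 genes, 18 had a higher fitted level on GW3965, 5 of them at an unadjusted P under 0.05 (all genes, 3.6%). None passed the FDR threshold, and the median log2 fold change was 0.31. The numbers were 18 and 9 without standard replicate 1, against 4.23% of all genes higher and 3.66% lower at this P, and the median was 0.64. In that fit 11 of the 22 genes had all GW3965 samples above both standard samples, a pattern found for 12.9% of all genes. In the other direction 10.1% of all genes had it. Without standard replicate 2, however, 14 of the 22 genes were higher and 8 lower, with a median of 0.165. The stearoyl-CoA desaturases, which make monounsaturated fatty acids, showed the largest gaps in CPM. *Scd2* had 339, 230 and 232 CPM on the standard diet and 830, 640 and 939 CPM on the GW3965 diet (log2 fold change 1.33, adjusted P = 0.405, edgeR), and *Scd1* had 142, 80.9 and 70.0 CPM and 338, 432 and 347 CPM (log2 fold change 1.97, adjusted P = 0.489, edgeR). In both genes all GW3965 samples exceeded all standard samples, and because the genes are close paralogues the quantification could have shared reads between them. *Scd2* passed the threshold with DESeq2 (adjusted P = 0.0235). With standard replicate 1 left out the log2 fold changes were 1.55 for *Scd2* and 2.33 for *Scd1*. *Acaca*, which encodes the first committed enzyme of the pathway, had 9.17, 12.7 and 14.3 CPM against 23.2, 22.2 and 28.0 CPM (log2 fold change 0.79, adjusted P = 0.45, edgeR). The desaturases of polyunsaturated fatty acids were also separated by diet, with log2 fold changes of 0.56 for *Fads1* and 0.95 for *Fads2* (adjusted P = 0.508 and 0.455, edgeR).

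Of the 25 cholesterol synthesis and uptake genes, 24 passed the filter. With all samples 19 were higher and 5 lower, with a median log2 fold change of 0.25 and 0 at an unadjusted P under 0.05 (0 at FDR < 0.05), and without standard replicate 1 all 24 were higher, with a median of 0.40 and 3 at an unadjusted P under 0.05 (all genes, 4.23%). Without standard replicate 2, however, 13 were higher and 11 lower, with a median of 0.045. Standard replicate 1 held the highest summed level of the list, 2774 CPM, against 1336 and 1906 CPM in the other standard samples and 1984 to 2341 CPM on GW3965. *Insig1*, which retains the sterol sensor in the endoplasmic reticulum, had 125, 66.3 and 113 CPM against 144, 185 and 133 CPM (log2 fold change 0.74, adjusted P = 0.575, edgeR). *Nsdhl*, an enzyme of sterol demethylation, had a log2 fold change of 0.55 and *Stard4*, a sterol carrier, of 0.44 (adjusted P = 0.658 and 0.692, edgeR). Of the 15 bile acid handling genes 10 passed the filter, 6 were higher, and the median was 0.61, which was also its value without standard replicate 1, when 8 of 11 were higher. *Fabp6*, the bile acid carrier of ileal enterocytes, had 2.64, 5.35 and 6.22 CPM against 15.5, 19.6 and 23.6 CPM, with no overlap (log2 fold change 1.88, adjusted P = 0.45, edgeR). *Slc51b*, a subunit of the basolateral bile acid exporter, overlapped between the diets (6.09, 10.8 and 17.5 against 36.2, 47.5 and 15.6 CPM), and *Abcc3*, another exporter, had a log2 fold change of 0.64 (adjusted P = 0.627, edgeR).

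The receptors themselves and the enzymes that make or clear oxysterols showed no call. Of these 14 genes 11 had a lower fitted level (9 without the ribosomal covariate), and the median log2 fold change was -0.25 (-0.14 without standard replicate 1). In each direction 1 gene had an unadjusted P under 0.05 (all genes, 3.6% higher and 5.05% lower). *Nr1h3* had 25.4, 38.6 and 47.1 CPM on the standard diet and 40.4, 74.9 and 36.7 CPM on GW3965, and the diets overlapped (log2 fold change 0.64, adjusted P = 0.545, edgeR). *Nr1h2* had 24.7 CPM in standard replicate 1 and 65.2 to 94.4 CPM in the other 5 samples, and its log2 fold change of 0.28 became -0.08 without that sample. *Rxra*, the partner of LXR, had a log2 fold change of -0.45 (adjusted P = 0.605, edgeR), and *Cyp27a1*, which makes 27-hydroxycholesterol, had 32.0, 33.2 and 28.9 CPM against 20.9, 26.3 and 21.2 CPM with no overlap (-0.46, adjusted P = 0.777).

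Genes of fibroblasts and the extracellular matrix were lower on the GW3965 diet, although none passed the FDR threshold. Of 18 genes 17 had a lower fitted level, 10 of them at an unadjusted P under 0.05 (all genes, 5.05%), and 9 had no overlap between the diets (all genes, 4.2%). Their median log2 fold change was -0.97. Without standard replicate 1 all 18 were lower, 8 at an unadjusted P under 0.05 (all genes, 3.66%) and 16 without overlap (all genes, 10.1%). The median was then -0.93. Without standard replicate 2 it was -0.47, with 15 of 18 lower and only 3 of them at an unadjusted P under 0.05 (all genes lower at this P, 2058 of 17437). The mean log2 CPM of the list was 6.54, 7.36 and 6.81 on the standard diet and 6.03, 6.33 and 5.90 on GW3965, so that the diets did not overlap. *Col3a1*, a fibrillar collagen of loose connective tissue, had 3274, 2622 and 2449 CPM on the standard diet and 683, 1514 and 606 CPM on GW3965 (log2 fold change -1.41, standard error 0.40, adjusted P = 0.45, edgeR). *Fn1*, fibronectin, had 459, 259 and 218 CPM against 107, 186 and 152 CPM (log2 fold change -1.04, adjusted P = 0.502, edgeR). With standard replicate 1 left out the log2 fold changes were -1.29 for *Col3a1* and -0.67 for *Fn1*, in which that sample was the highest. *Col5a1* differed less cleanly, because standard replicate 1, at 18.6 CPM, lay among the GW3965 samples (17.2, 17.3 and 26.2 CPM) and the other standard samples had 47.0 and 32.0 CPM. In 3 genes singled out after their values were seen, standard replicate 1 also lay among or below the GW3965 samples. *Col1a1* had 34.9, 274 and 109 CPM against 84.0, 62.6 and 87.6 CPM, the gelatinase gene *Mmp2* had 27.6, 122 and 62.2 CPM against 38.0, 34.4 and 55.9 CPM, and the protease inhibitor gene *Timp1* had 20.8, 68.4 and 57.8 CPM against 14.9, 24.96 and 13.3 CPM. In bulk tissue, fewer fibroblasts and less RNA per fibroblast cannot be told apart. For days 0, 22 and 70 the medians of the list were -0.23, -1.18 and 0.16, and the differences between days were not tested for the list.

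Wnt target and stem cell genes had the lowest median of all lists with all 6 samples, and this value rested on standard replicate 1. Of 23 genes 22 were lower, 12 at an unadjusted P under 0.05 (all genes, 5.05%), with a median log2 fold change of -1.45, and 5 had no overlap between the diets (all genes, 4.2%). Without standard replicate 1 the numbers were 22 and 2 (all genes, 3.66% at this P), and the median was -0.32. The summed level of the list was 5063 CPM in standard replicate 1, 673 and 908 CPM in standard replicates 2 and 3, and 714, 450 and 510 CPM on GW3965. *Wif1*, a secreted Wnt inhibitor, had 577, 17.4 and 14.2 CPM on the standard diet and 6.76, 1.62 and 3.13 CPM on GW3965, and its log2 fold change was -5.65 with standard replicate 1 and -2.09 without it (adjusted P = 0.444 and 0.56, edgeR). All GW3965 samples were below standard replicates 2 and 3 as well, by a smaller margin. *Prox1*, a transcription factor that Wnt signalling induces in colon tumours, had 201, 6.16 and 5.57 CPM against 5.11, 2.23 and 7.79 CPM, and outside standard replicate 1 the diets overlapped (log2 fold change -4.21 with it and -0.60 without it). *Smoc2*, a gene of crypt base cells, had 262, 66.0 and 73.0 CPM against 42.0, 38.9 and 29.5 CPM, with no overlap in either set of samples (log2 fold change -1.63 and -0.72). *Lgr5*, the stem cell receptor for R-spondin, had 102, 6.10 and 9.70 CPM against 5.82, 1.96 and 0.784 CPM, and *Notum*, another secreted Wnt inhibitor, had 190, 9.42 and 14.4 CPM against 5.05, 0.338 and 1.23 CPM (both chosen after their values were seen). With DESeq2 *Wif1*, *Prox1*, *Smoc2* and *Lgr5* passed the threshold with all samples (adjusted P between 0.000232 and 0.0262), and with edgeR they passed it without standard replicate 2 (adjusted P between 0.0258 and 0.0365), when standard replicate 1 was 1 of the 2 standard samples left. Standard replicate 1 was also the sample with the lowest RIN, and the part of RNA quality in these values was not tested. The paper reports that visible tumours at this time point were found almost only in control mice. It also states that biopsies for RNA were taken from distal colon where tumours form. The labels do not give the tumour content of each sample, and its part in these values was not tested either.

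**Figure D2:**
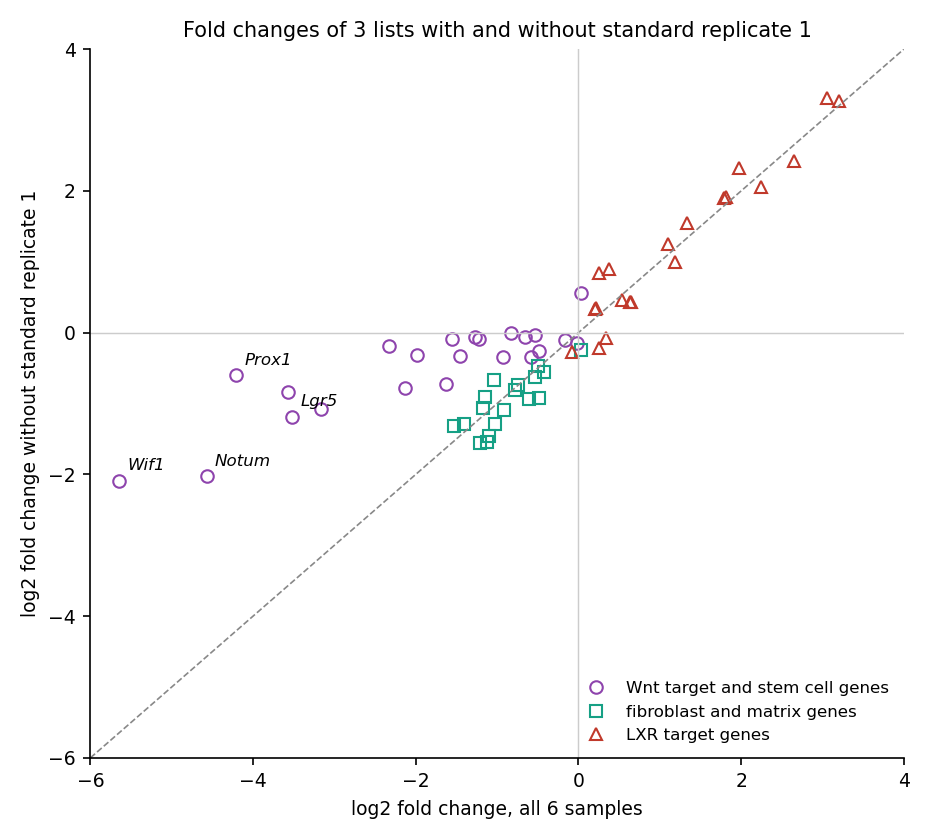
Log2 fold change (GW3965 minus standard, day 43) of the genes of 3 lists with all 6 samples (horizontal axis) and without standard replicate 1 (vertical axis); each symbol is a gene and the dashed line marks equal values. LXR target and matrix genes lie near the line, whereas Wnt target and stem cell genes lie above it, *Wif1* at -5.65 and -2.09.

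Neutrophil and acute inflammation genes were lower on GW3965 in the fit of all samples, with 19 of 23 genes lower, 2 at an unadjusted P under 0.05 (all genes, 5.05%), 7 without overlap (all genes, 4.2%) and a median log2 fold change of -0.86. The samples within each diet varied widely. The summed level was 5304, 17480 and 6597 CPM on the standard diet and 5147, 3222 and 1274 CPM on GW3965, so that standard replicate 2 was the highest and GW3965 replicate 3 the lowest. The median was -1.10 without standard replicate 1 and -0.61 without GW3965 replicate 3, and it turned to 0.40 without standard replicate 2. *Retnlg*, a neutrophil gene, had 53.8, 851 and 59.5 CPM on the standard diet and 83.9, 28.5 and 11.9 CPM on GW3965, and *Mmp8*, the neutrophil collagenase, had 11.2, 94.8 and 4.88 CPM and 12.98, 2.50 and 1.76 CPM. Both genes overlapped between the diets, and their log2 fold changes of -2.90 and -2.73 (adjusted P = 0.508 and 0.509, edgeR) became 0.85 and 0.35 without standard replicate 2. *Saa3*, an acute-phase protein of inflamed mucosa, was the clearest of the named genes, with 1425, 2239 and 1648 CPM against 464, 928 and 43.8 CPM and no overlap (log2 fold change -1.71, adjusted P = 0.588, edgeR).

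Genes of monocytes and macrophages (13 of 16 lower, median log2 fold change -0.36) and interferon-stimulated genes (15 of 18 lower, median -0.37) shared this dependence, with medians of -0.70 and -0.51 without standard replicate 1 and of 0.49 and 0.16 without standard replicate 2. *Mrc1*, the mannose receptor of tissue macrophages, had 63.5, 78.0 and 60.7 CPM on the standard diet and 27.9, 45.8 and 23.9 CPM on GW3965, with no overlap (log2 fold change -0.93, adjusted P = 0.491, edgeR). *Itgam*, an integrin of myeloid cells, had a log2 fold change of -1.06 (adjusted P = 0.543), and *Timd4*, a receptor for dying cells on long-lived macrophages, had 0.715, 2.30 and 1.18 CPM against 3.29, 5.07 and 2.11 CPM (1.55, adjusted P = 0.508). Among the interferon-stimulated genes *Ifit3* and *Rsad2*, which restrict viruses, had log2 fold changes of -0.55 and -0.43 (adjusted P = 0.726 and 0.75, edgeR).

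B cell genes had a higher fitted level on GW3965 in 20 of 20 cases, with a median log2 fold change of 1.03 and 2 genes at an unadjusted P under 0.05 (all genes, 3.6%). The size of this difference depended on the standard samples in the fit. Without the ribosomal covariate 18 of 20 genes were higher (median 0.96), and with standard replicate 1 also left out 16 of 20 were (median 0.55). The mean log2 CPM of the list was 2.24 in standard replicate 1, 4.48 and 4.13 in standard replicates 2 and 3, and 4.81, 5.14 and 4.29 on GW3965. The median was 0.57 without standard replicate 1, with 18 of 20 genes higher and 0 at an unadjusted P under 0.05. Without standard replicate 2 it was 1.95, with 19 of 20 higher and 7 at this P (all genes, 1172 of 17437). *Ms4a1*, which encodes CD20, had 24.4, 54.3 and 35.6 CPM on the standard diet and 117, 190 and 58.2 CPM on GW3965 (log2 fold change 1.90, adjusted P = 0.543, edgeR), and all GW3965 samples exceeded all standard samples. The B cell kinase gene *Blk* had 1.30, 14.2 and 12.2 CPM against 25.5, 36.7 and 18.1 CPM, and the adaptor gene *Bank1* had 1.65, 9.47 and 6.59 CPM against 15.1, 20.4 and 13.4 CPM, again with no overlap and with adjusted P of 0.575 and 0.624 (edgeR).

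The other lymphoid lists depended on the same 2 samples and on the ribosomal covariate. The medians were 0.70 for T cell genes, 0.83 for MHC class II genes, 0.53 for follicle and lymphoid homing genes and 0.32 for plasma cell genes, and 0.37, 0.39, 0.21 and 0.01 without standard replicate 1. They were 1.35, 1.72, 1.34 and 0.96 without standard replicate 2. Without the ribosomal covariate the medians were 0.40, 0.57, 0.46 and 0.08 in the same order. With standard replicate 1 also left out they were 0.08, 0.14, 0.10 and -0.28. *Lck*, the kinase of T cell receptor signalling, overlapped between the diets (12.7, 31.4 and 35.6 against 40.2, 62.2 and 29.1 CPM). *Cd5* had 0.342, 4.496 and 4.77 CPM against 7.29, 6.97 and 5.83 CPM with no overlap, and *Lat*, an adaptor of T cells, had a log2 fold change of 0.89 (adjusted P = 0.693, edgeR). *H2-DMb1*, which loads peptides on class II molecules, had a log2 fold change of 0.88, the homing chemokine *Ccl20* of 1.26, the lymphocyte growth factor *Il7* of 0.55 and the secretory cell factor *Xbp1* of 0.47, with adjusted P between 0.59 and 0.68 (edgeR).

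**Figure D3:**
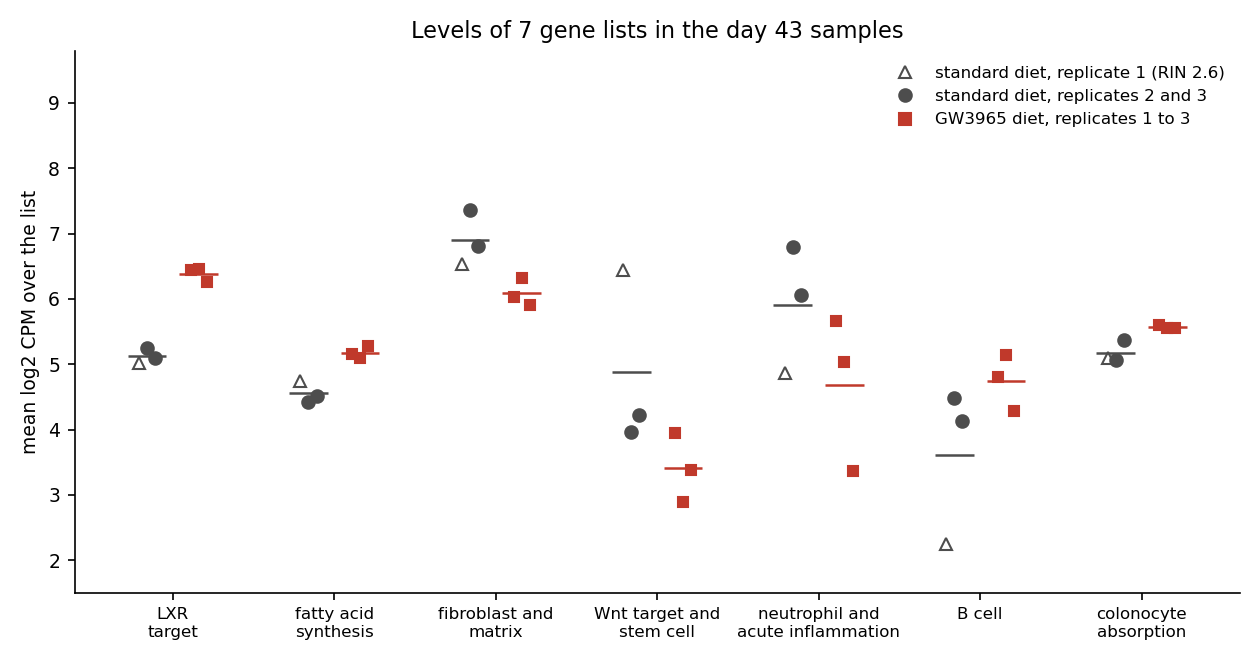
Mean log2 CPM over the members of 7 gene lists in each day 43 sample (triangle, standard replicate 1; circles, standard replicates 2 and 3; squares, GW3965 replicates; bar, mean of the 3 samples). The diets did not overlap for LXR target, fatty acid synthesis, matrix and colonocyte genes. For Wnt target genes they were apart by a narrow margin (lowest standard sample 3.964, highest GW3965 sample 3.954). Standard replicate 1 was the highest sample for Wnt target genes (6.44) and the lowest for B cell genes (2.24).

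Genes of the absorptive and secretory epithelium tended to higher levels on GW3965, with no call. Of 20 colonocyte absorption genes 14 were higher (median log2 fold change 0.41, and 0.24 without standard replicate 1), 9 of them with no overlap in either set of samples (all genes, 6.73% and 12.9%), and the mean log2 CPM of the list was 5.09, 5.07 and 5.37 on the standard diet and 5.603, 5.56 and 5.55 on GW3965. *Slc37a2*, a sugar phosphate transporter, had 3.08, 16.4 and 8.201 CPM against 29.3, 34.6 and 21.8 CPM (log2 fold change 1.47, adjusted P = 0.543, edgeR). The sodium transport genes *Scnn1b* and *Slc9a3* were high in standard replicate 1 (30.6 and 74.2 CPM) and between 1.37 and 7.72 CPM in the other 5 samples, and the log2 fold change of *Slc9a3* went from -3.34 to 0.07 without that sample. Of 14 goblet cell genes 12 were higher (median 0.55, and 0.43 without standard replicate 1). *Atoh1*, the transcription factor that commits cells to the secretory lineage, had 9.73, 7.76 and 9.65 CPM against 14.4, 19.01 and 14.99 CPM. *Spdef*, which matures goblet cells, had 9.42, 15.4 and 21.1 CPM against 23.3, 28.5 and 26.6 CPM, and *Clca1*, a mucus component, had 210, 133 and 160 CPM against 219, 573 and 353 CPM. For these 3 genes the diets did not overlap and adjusted P lay between 0.599 and 0.607 (edgeR).

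Antimicrobial genes varied strongly within the GW3965 diet. *Reg3b* and *Reg3g*, antibacterial lectins of the mucosa, had 558 and 370 CPM in GW3965 replicate 1 and 386 and 284 CPM in replicate 2, but 2.94 and 9.94 CPM in replicate 3, which was below every standard sample (12.9 to 67.8 and 24.7 to 106 CPM). Their fitted log2 fold changes of 4.33 and 2.74 (adjusted P = 0.439 and 0.489, edgeR) therefore describe 2 of the 3 samples. *Retnlb*, a goblet cell protein of mucosal defence, had 21.8, 34.1 and 31.4 CPM on the standard diet and 80.5, 260 and 34.6 CPM on GW3965, with no overlap by a narrow margin (log2 fold change 2.30, adjusted P = 0.494, edgeR). The median of the 14 antimicrobial genes tested was 0.61, and 0.69 without standard replicate 1.

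For ligands and receptors of the EGFR family the median log2 fold change was -0.16, and 0.15 without standard replicate 1. *Areg*, the ligand amphiregulin, had 38.3, 24.9 and 42.7 CPM on the standard diet and 58.2, 22.6 and 30.3 CPM on GW3965, and the diets overlapped (log2 fold change 0.08, standard error 0.78, adjusted P = 0.989, edgeR). *Egfr* had 25.6, 23.7 and 21.3 CPM against 18.7, 13.7 and 20.7 CPM (log2 fold change -0.69, adjusted P = 0.509, edgeR), and the ligand gene *Ereg* had 28.4, 57.7 and 27.4 CPM against 18.1, 21.6 and 13.8 CPM (-0.96, adjusted P = 0.694), both without overlap. Fetal-like regenerative genes had a median of -0.47 (-0.43 without standard replicate 1), led by *Ccn2*, a matricellular target of YAP, with 606, 93.8 and 130 CPM against 78.9, 72.5 and 37.3 CPM. The medians of the enteroendocrine and tuft cell genes (0.36) and of the cell cycle genes (-0.05) became 0.14 and 0.16 without standard replicate 1. Of the other genes that the study discusses, the stem cell gene *Olfm4* had 2.83, 6.37 and 4.66 CPM against 8.22, 2.71 and 1.96 CPM, and *Apoa4*, an intestinal apolipoprotein gene, was at or below 0.643 CPM in all 6 samples.

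The pieces of colon differed in the other tissues they carried, and this was not aligned with diet. Summed over 12 skeletal muscle genes the level was 178, 50.3 and 24.3 CPM on the standard diet and 27.6, 25.2 and 410 CPM on GW3965. Summed over 15 genes of stratified epithelium it was 534, 1774 and 879 CPM and 2467, 192 and 4479 CPM. GW3965 replicate 3 was the highest sample for both and for 12 smooth muscle genes (17480 CPM, against 4334 to 12100 CPM in the other 5 samples), and it was also the sample lowest in neutrophil genes. The medians of these 3 lists were -1.07, -0.23 and 0.40, and 0.50, -0.62 and 0.06 without standard replicate 1. Without the ribosomal term in the model (GW3965 replicate 3 had the lowest ribosomal share, 10.02%, against 13.07% to 18.56%) the skeletal muscle and stratified epithelium medians were 1.55 and 1.28, so that their sign rested on that term. Enteric neuron and glia genes had a median of -0.02 and fat cell genes of 0.34 (-0.24 and -0.03 without standard replicate 1). The part of tissue content in the differences above was not tested.

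**Figure D4:**
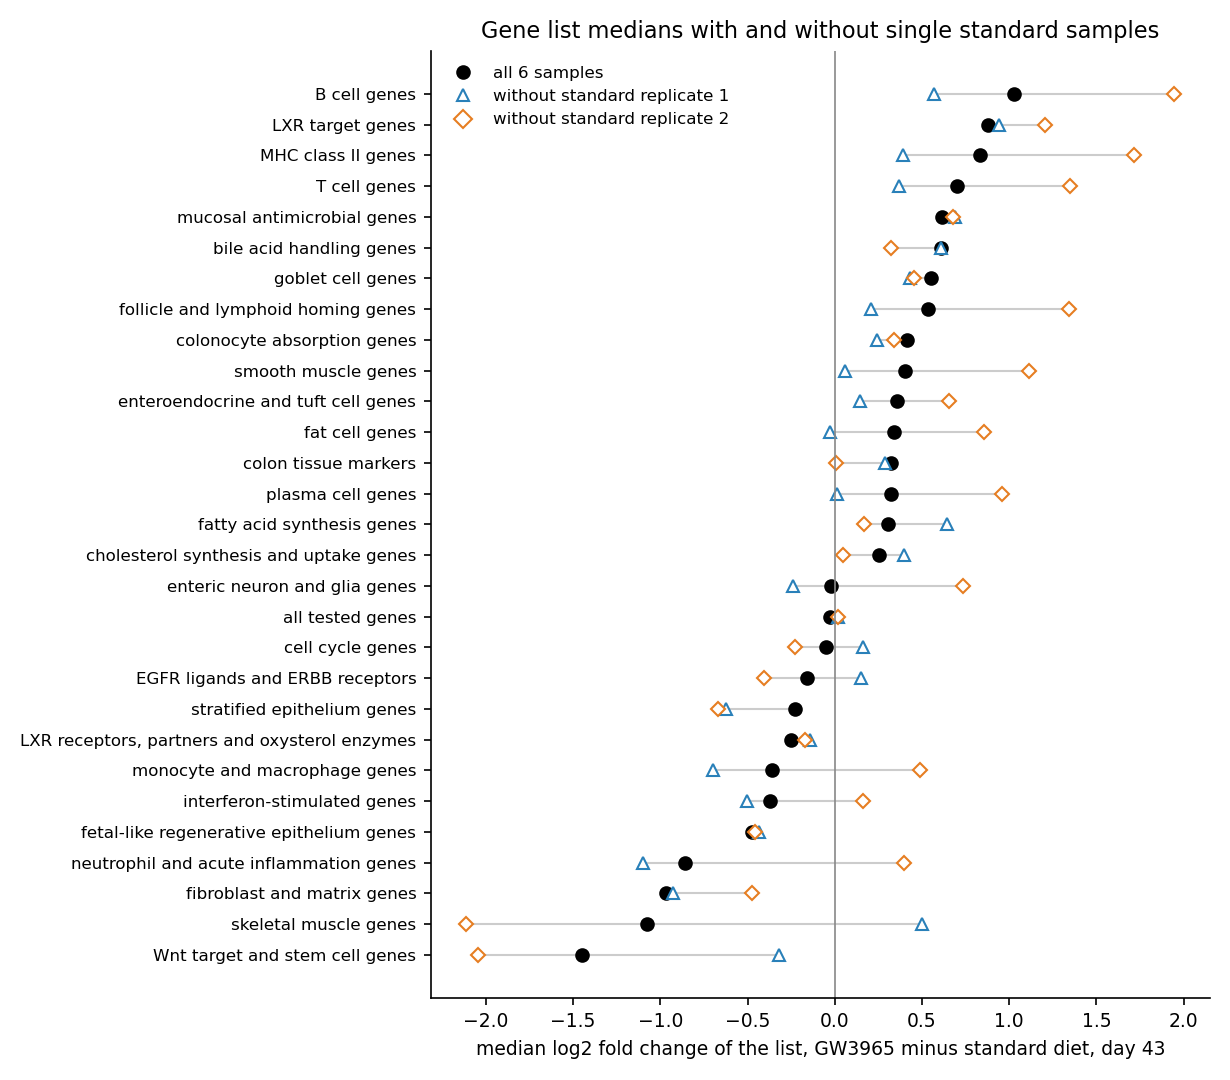
Median log2 fold change (GW3965 minus standard, day 43) of each gene list and of all tested genes with all 6 samples (black circles), without standard replicate 1 (triangles) and without standard replicate 2 (diamonds). The LXR target, fatty acid synthesis and matrix lists kept their sign in all 3 sets, as did most other lists. The neutrophil list stood at -0.86, -1.10 and 0.40.

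*Mid1*, a ubiquitin ligase of microtubules (ENSMUSG00000035299.16, chromosome X, 169685199 to 170005736), was the 1 gene that fell without standard replicate 1. It had 34.9 and 26.9 CPM in standard replicates 2 and 3 and 17.4, 12.99 and 17.9 CPM on GW3965 (log2 fold change -1.14, adjusted P = 0.00212, edgeR). Standard replicate 1, at 14.98 CPM, lay among the GW3965 samples, and with it the log2 fold change was -0.89 (adjusted P = 0.405, edgeR, and 0.0378 with DESeq2). With standard replicate 1 left out, 11 genes were called without standard replicate 2, 10 without standard replicate 3, 4 without GW3965 replicate 1, 2 without GW3965 replicate 2 and 3 without GW3965 replicate 3. *Mid1* was called in the fits that left out standard replicate 3, GW3965 replicate 1 or GW3965 replicate 3, and not in those that left out standard replicate 2 or GW3965 replicate 2. Of the 5 LXR targets, *Abcg1* was called in each of these 5 fits and *Srebf1* in all but that without standard replicate 2, while *Abca1*, *Abcg5* and *Abcg8* were called in none.

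The diet effect of day 43 was then set against that of the other days in the same model, with 4 samples per diet at day 0 (no AOM or DSS, after 22 or 43 days on the diet) and 3 per diet at days 22 and 70. By the labels the day 22 samples came from the same cages as those of day 43 (A for the standard diet and B for GW3965), the day 0 samples from 1 other cage per diet, and the day 70 samples from 6 cages, none shared. Day and cage therefore cannot be told apart between day 43 and days 0 or 70, and days 22 and 43 share the cages in which diet and cage cannot be told apart. All 5 genes that rose at day 43 also rose at day 0 and at day 70, and 4 of them at day 22, where *Abcg8* had an adjusted P of 0.0569 (edgeR). The log2 fold changes at days 0, 22, 43 and 70 were 2.23, 1.41, 1.79 and 2.67 for *Abca1*, and 2.90, 2.16, 2.65 and 2.51 for *Abcg1*. They were 2.23, 2.06, 1.81 and 1.66 for *Srebf1*, 3.14, 2.51, 3.20 and 1.75 for *Abcg5*, and 3.22, 2.05, 3.05 and 1.74 for *Abcg8*. None of these 5 genes differed between day 43 and another day at FDR < 0.05. The level on the standard diet moved as well, and *Abcg5* had 14.8 ± 3.24 CPM (SD, n = 4) at day 0 and 6.81 ± 1.03 CPM (SD, n = 3) at day 43 on the standard diet, with 129.6 ± 12.5 CPM (SD, n = 4) and 64.0 ± 10.4 CPM (SD, n = 3) on GW3965.

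No gene had a diet effect that differed between day 43 and day 0 or day 22 at FDR < 0.05 with edgeR, with 746 and 723 genes at an unadjusted P under 0.05 and with 12 and 20 genes called by DESeq2. Without standard replicate 2 or 3, edgeR called 4 and 4 genes for day 0 and 12 and 4 for day 22, and it called 1 for day 22 without GW3965 replicate 2. Between day 43 and day 70 the diet effect differed for 3 genes (0.0176%), all with a lower value at day 43. They were *C1s1*, a complement serine protease, *Enpp2*, the enzyme that makes lysophosphatidic acid, and *Ggt5*, an enzyme that acts on glutathione conjugates. *Ggt5* had 48.4, 62.7 and 61.6 CPM on the standard diet at day 43 and 20.1, 37.8 and 8.77 CPM on GW3965, with no overlap (log2 fold change -1.11, adjusted P = 0.45, edgeR), and at day 70 its log2 fold change was 1.66 (adjusted P = 0.0252). *C1s1* had 212, 257 and 257 CPM against 141, 221 and 110 CPM at day 43 (-0.51, adjusted P = 0.603) and a log2 fold change of 1.88 at day 70 (adjusted P = 0.00264). *Enpp2* had 32.2, 49.4 and 27.3 CPM against 31.4, 45.5 and 34.8 CPM at day 43 (-0.03, adjusted P = 0.987) and a log2 fold change of 2.24 at day 70 (adjusted P = 0.000169). The number of such genes was 171 without standard replicate 1, 23 without standard replicate 2, 33 without standard replicate 3 and 0 without GW3965 replicate 1 or 3.

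**Figure D5:**
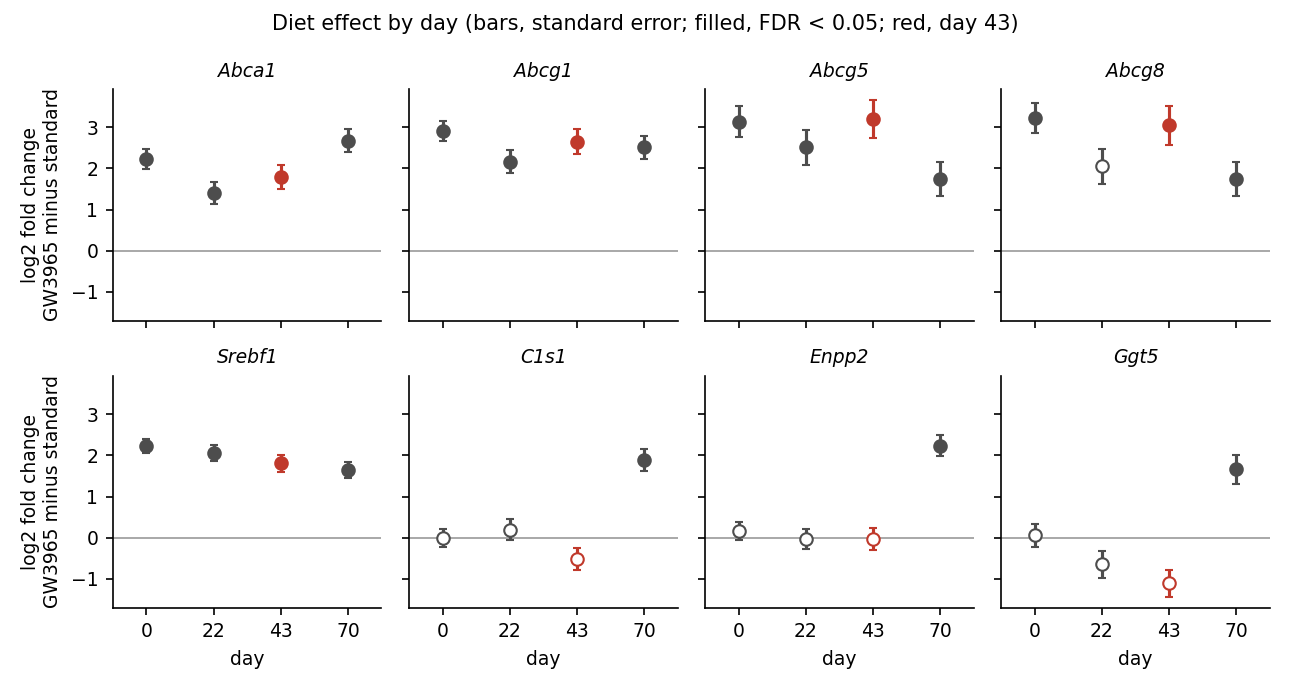
Log2 fold change between the diets (GW3965 minus standard, with its standard error) at days 0, 22, 43 and 70 for the 5 genes that rose at day 43 and the 3 genes for which day 43 and day 70 differed in the effect of diet (filled, FDR < 0.05; red, day 43). The 5 LXR targets lie between 1.41 and 3.22 at every day, and *Enpp2* goes from -0.03 at day 43 to 2.24 at day 70.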

How the data were processed

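RNA-seq of 26 mouse colon samples in 8 groups of diet and day was analysed, of which 6 form the day 43 comparison. Kallisto was run by the authors against GRCm38 cDNA, and they deposited its estimated counts (expected counts) for each transcript, without normalization; the version of Kallisto, the Ensembl release and the use of strand are not given in the sources used here. Of 119414 transcripts 116728 (97.8%) were matched to GENCODE genes by identifier, summed to 35975 genes and rounded. Between 0.615% and 0.999% of the counts per sample were unmatched. Total counts ranged from 18195345 to 41522204 (median 20424701).

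edgeR 4.0.16 in R 4.3.3 was used with TMM, filterByExpr over the 8 groups (17063 genes, or 17418 without standard replicate 1) and the quasi-likelihood test. The model held the 8 groups and, as an additive covariate, the share of counts that fell on 88 ribosomal protein genes. The paper's model differs in 2 ways, because its covariate is the share of ribosomal RNA, which is another quantity, and because it has interactions. P values were adjusted by Benjamini-Hochberg over all genes tested (FDR < 0.05), and standard errors were derived from the F statistic. The same groups gave the differences between days. 1 day 0 sample with a title and diet label that disagree was placed by its title. CPM per sample was not corrected for the ribosomal percentage, and log2 CPM used a prior count of 2. Alternatives used DESeq2 1.42.0, limma 3.58.1, other terms, scalings, filters and samples. The edgeR test was also run on simulated counts. With all samples it recovered 9 of 100 genes changed by 1 on the log2 scale and 69 of 100 changed by 2, and it called 2 unchanged genes. Without standard replicate 1 it recovered 13 and 69 of 100 and called 7 unchanged genes. Most changes of 1 on the log2 scale were therefore missed. Promoters were searched in Python 3.11.15 with pandas 2.3.3.

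The comparison, the gene lists and the genes named were chosen with earlier results of these data known. The rule named the genes with FDR < 0.05 at day 43 with all samples, up to 12 per direction without standard replicate 1, the 3 genes of lowest P in each list, up to 5 genes per difference between days, and genes that the study discusses. The other genes named (*Mylip*, *Scd1*, *Apoc1*, *Fasn*, *Apoe*, *Fads1*, *Col1a1*, *Mmp2*, *Timp1*, *Lgr5*, *Notum* and *Gm28438*) were chosen after their values were seen. A few genes that this rule names are not reported here.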

Additional observations from a re-analysis of the deposited data

Results flagged for a closer look

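The diet effect of 3 genes, *C1s1*, *Enpp2* and *Ggt5*, differed between day 43 and day 70 by the test of the difference itself (edgeR quasi-likelihood test of the interaction, FDR < 0.05). The diet effect at day 43 minus that at day 70 was -2.39 on the log2 scale for *C1s1* (adjusted P = 0.022), -2.27 for *Enpp2* (adjusted P = 0.022) and -2.77 for *Ggt5* (adjusted P = 0.0382).

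On the standard diet, *C1s1* had 242 ± 26 CPM (SD, n = 3) at day 43 and 53.3 ± 8.02 CPM (SD, n = 3) at day 70, and on GW3965 it had 157.5 ± 57.4 CPM and 185.5 ± 69.4 CPM. *Enpp2* had 36.3 ± 11.6 CPM and 10.9 ± 1.94 CPM on the standard diet, and 37.2 ± 7.35 CPM and 53.2 ± 24.1 CPM on GW3965. *Ggt5* had 57.6 ± 7.96 CPM and 3.59 ± 0.916 CPM on the standard diet, and 22.2 ± 14.6 CPM and 9.38 ± 3.31 CPM on GW3965. Neither *C1s1*, *Enpp2* nor *Ggt5* was called without GW3965 replicate 1 or without GW3965 replicate 3 of day 43, when 0 genes were. Groups of 3 samples are too small for the test of a single outlying sample, which was not run.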

How the results depend on the processing

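With all samples the number of genes called at day 43 (5) was the same with 2 other scalings, 2 other filters, without the day 0 sample of conflicting labels and with the day 0 groups split. It was 68 with DESeq2, 18 with edgeR's likelihood ratio test, 10 with limma voom and sample weights, 18 without the ribosomal term, 8 with RIN as the term and 2 with the day 43 samples alone. Those 2 were *Abcg5* and *Gm28438*, and the other 4 LXR targets had log2 fold changes of 1.803 (*Abca1*), 2.737 (*Abcg1*), 2.978 (*Abcg8*) and 1.861 (*Srebf1*) there, with adjusted P between 0.282 and 0.347 (edgeR). Leaving out 1 sample gave 2 to 285. Without standard replicate 1 (6 genes) the numbers were 46, 11, 9, 7, 23 and 0, and 3 without the conflicting sample, and leaving out 1 further sample gave 2 to 11. For the difference from day 0 (0 genes) DESeq2 gave 12 and leaving out 1 sample 0 to 4, from day 22 (0 genes) 20 and 0 to 12, and from day 70 (3 genes) 310 and 0 to 171, with 5 for RIN as the term.

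Same-numbered samples of the 2 diets did not deviate together at day 43 (r = -0.066, -0.14 and -0.051 across genes), so the numbers were not taken as pairs. With the replicate block 0 genes were called at day 43, 0 without standard replicate 1 and 0 for the difference from day 70.

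Over 73 genes with a named fold change, the sign of 10 turned when 1 sample was left out. The log2 fold changes then ranged from -0.073 to 1.139 for *Apoe*, from -0.081 to 0.779 for *Nr1h2* and from -4.169 to 0.067 for *Slc9a3*, each turning without standard replicate 1. They ranged from -0.218 to 0.848 for *Fasn*, from -4.003 to 0.849 for *Retnlg* and from -4.096 to 0.349 for *Mmp8*, each turning without standard replicate 2. The ranges were -0.393 to 0.796 for *Areg*, -0.695 to 0.306 for *Enpp2*, -1.19 to 0.088 for *Apoa4* and -0.813 to 0.779 for *Olfm4*, which turned under several omissions. Without the ribosomal term the values were 0.007 for *Rxra*, 0.036 for *Enpp2* and -0.102 for *Olfm4*. With RIN as the term they were 0.012 for *Enpp2* and -0.294 for *Olfm4*, with limma voom 0.13 for *Enpp2*, with the day 43 samples alone 0.002 for *Enpp2* and -0.139 for *Olfm4*, with upper quartile scaling 0.002 for *Enpp2*, and with the replicate block -0.251 for *Olfm4*.  None of these genes was called for the diet effect at day 43 with all samples (*Enpp2* was called at day 70 and for the difference between days 43 and 70), and the causes were not tested. List medians without GW3965 replicate 3 or standard replicate 2 were computed after seeing the data. Intervals from 3 samples per diet are wide, and a gene outside the threshold is not shown to be equal between the diets.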

Other observations

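Several genes of low P belonged to none of the lists and were chosen after their values were seen. *Col12a1* and *Col16a1*, collagens that associate with fibrils, had 114, 74.3 and 75.4 CPM and 40.1, 34.6 and 33.8 CPM on the standard diet at day 43, and 29.7, 28.5 and 17.3 CPM and 16.3, 15.9 and 18.8 CPM on GW3965. Their log2 fold changes were -1.71 and -1.25 (adjusted P = 0.283 for both, edgeR), and in both genes standard replicate 1 lay with the other standard samples. *Thbs1*, thrombospondin 1, had 330, 99.4 and 134 CPM against 53.4, 48.0 and 38.6 CPM (log2 fold change -1.83, adjusted P = 0.3, edgeR).

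*Slc39a14*, a zinc and iron importer, had 37.3, 62.1 and 41.1 CPM against 25.7, 27.2 and 26.4 CPM (log2 fold change -0.86, adjusted P = 0.272, and 0.0584 without standard replicate 1, edgeR). *Cyp2w1*, a cytochrome P450 known from colon tumours and fetal colon, had 0.28, 0.482 and 0.911 CPM against 3.47, 2.03 and 6.61 CPM (log2 fold change 2.42, adjusted P = 0.136, edgeR). In both genes the diets did not overlap.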
